A study of Mus musculus with 7 samples.

Results

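A set of 6 genes of chemokine and neuregulin signalling were followed in the embryonic mouse subpallium: the chemokine Cxcl12, its receptors Cxcr4 and Ackr3, the neuregulins Nrg1 and Nrg3, and their receptor Erbb4. Members were every probe whose RefSeq transcript belongs to one of these 6 genes, of 17178 genes with a named probe. They comprised 12 of 41174 probes. Ganglionic eminences and septum of E12.5 embryos of the CD-1 strain, all female, were taken, and their RNA was hybridised in 1 colour to Agilent whole mouse genome arrays. The Otx2 cKO group held 3 arrays from embryos carrying a floxed Otx2 allele recombined by RxCre, a Cre line active in most of the forebrain but not in the choroid plexus and cortical hem region. The control group held 4 arrays, and its alleles are not given in the sources used here. Litter 2 supplied cKO replicates 1 and 3 and control replicates 2 and 3, and each remaining embryo was the only one of its litter here. Slide 1 carried cKO replicate 1 and control replicates 1 and 2, and slide 2 carried cKO replicates 2 and 3 and control replicates 3 and 4.

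Tangentially migrating interneurons are born in the ganglionic eminences and travel to the cortex. CXCL12, secreted by the meninges and by cells along the route, holds these neurons in their streams through the G protein-coupled receptor CXCR4, while ACKR3 binds and internalises the same chemokine and thereby sets how much of it remains and how responsive CXCR4 stays. Neuregulins, made as membrane-bound or secreted forms with an EGF-like domain, bind the receptor tyrosine kinase ERBB4, which many interneurons from the medial ganglionic eminence carry as they move towards the cortex. OTX2 is a homeodomain transcription factor of the anterior brain.

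Signals were divided by the 75th percentile of their own array and are given as log2 values, so 0 marks that percentile and 1 unit is a 2-fold change. The probe of Otx2 went against the labels, with log2 signals of 1.77, 2.33 and 1.77 on the arrays labelled Otx2 cKO, against 0.18, 0.54, 0.47 and 0.55 on the control arrays. The log2 difference was 1.52 ± 0.17 (limma moderated SE, Benjamini-Hochberg adjusted p = 0.0338), higher in all 3 cKO-labelled arrays. The direction held when each array was left out in turn, although the adjusted p then lay between 0.0561 and 0.15. The files do not say whether this probe lies in the recombined part of the gene, so every difference below is between arrays as labelled. The subpallial marker Nkx2-1, a transcription factor of the medial ganglionic eminence, was present in both groups, at 2.72, 3.27 and 2.97 on the cKO-labelled arrays and 2.42, 3.01, 3.03 and 2.97 on the control arrays. Over all probes the arrays correlated at 0.987 to 0.99 among cKO-labelled arrays, 0.988 to 0.991 among controls and 0.985 to 0.991 between groups.

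Because OTX2 and LIM homeodomain proteins bind short DNA cores, the 250 bases before the annotated start of each gene were read from RefSeq promoter sequences of mouse GRCm38.p6, where 5 of the 6 genes were matched. The 3 chemokine genes are shown, 5′ to 3′ in the direction of transcription, since their basal promoters differ in the elements found. Capitals mark GC boxes (GGGCGG) and TATA boxes (TATAAA), on either strand. Cxcr4 lies at chr1:128592300-128592549 on the minus strand, Ackr3 at chr1:90203730-90203979 on the plus strand and Cxcl12 at chr6:117168285-117168534 on the plus strand.
Cxcr4: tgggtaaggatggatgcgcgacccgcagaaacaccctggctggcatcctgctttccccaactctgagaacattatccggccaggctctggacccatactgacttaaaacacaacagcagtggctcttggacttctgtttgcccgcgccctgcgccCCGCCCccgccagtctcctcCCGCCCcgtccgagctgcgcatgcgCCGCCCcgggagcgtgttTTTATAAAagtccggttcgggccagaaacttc
Ackr3: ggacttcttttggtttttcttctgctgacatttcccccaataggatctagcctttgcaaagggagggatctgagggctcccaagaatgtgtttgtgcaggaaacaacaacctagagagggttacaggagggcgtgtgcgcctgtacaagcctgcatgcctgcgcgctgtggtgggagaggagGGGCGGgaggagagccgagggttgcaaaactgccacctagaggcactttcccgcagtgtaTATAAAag
Cxcl12: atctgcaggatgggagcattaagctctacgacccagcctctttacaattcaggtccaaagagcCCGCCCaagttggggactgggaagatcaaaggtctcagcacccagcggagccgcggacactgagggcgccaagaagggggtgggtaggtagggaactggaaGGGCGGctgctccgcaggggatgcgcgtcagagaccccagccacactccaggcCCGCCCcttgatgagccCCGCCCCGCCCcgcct

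A GC box was found 5 times before Cxcl12, where the last pair shares 1 base, 3 times before Cxcr4 and 1 time before Ackr3. A TATA box was found before Cxcr4, where it reads on both strands with an overlap, and before Ackr3. Neither element was found before Erbb4 or Nrg3. Among the same windows of all 32851 promoters, 32.7% held a GC box and 12.4% a TATA box. The OTX core TAATCC, held by 6.25% of all promoters, and the LIM homeodomain core TAATTA, held by 4.84%, were in 0 of the 5 windows on either strand. These are matches of letters in 1 short window and were not set against binding data.

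None of the 5 genes tested passed the threshold of an adjusted p under 0.05, and none had an unadjusted p under 0.05 (limma, Benjamini-Hochberg over 13350 genes). Across all genes tested 28 passed, 0.21%, of which 11 were higher (0.0824%) and 17 lower (0.127%) in the cKO-labelled arrays. In the fit over probes 20 of 28521 passed, 0.0701%, none of them a member probe. All 6 genes passed the background filter, which required 3 or more of the 7 arrays to be well above background. Ackr3 was the untested member, since the scanner software had marked its spot as non-uniform on 6 arrays. The groups did not overlap for 1 of the 5 genes, Nrg3, which was lower. Of all genes tested 12.8% did not overlap, 7.64% lower and 5.14% higher in the cKO-labelled arrays, and of all probes 11.2%. The range that held the central 90% of all log2 differences ran from -0.45 to 0.45.

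**Figure D1:**
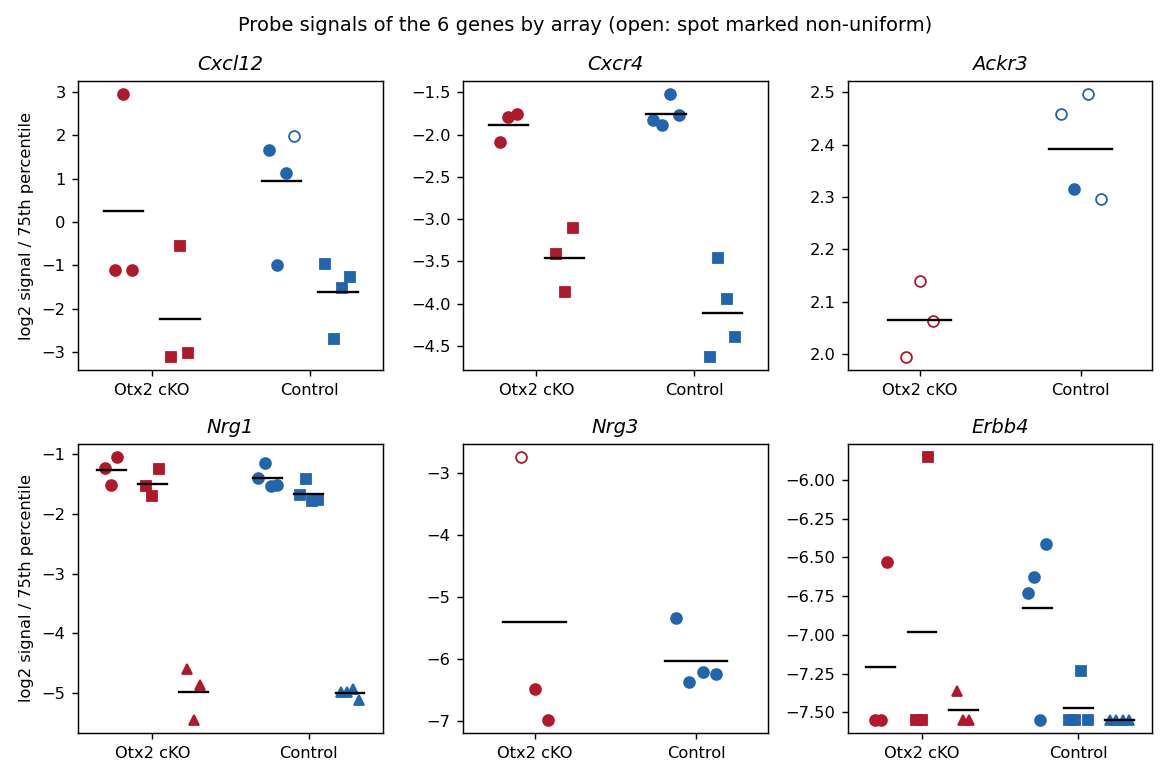
Log2 ratio of signal to the 75th percentile of the array (vertical axis) for every probe of the 6 genes, with Otx2 cKO arrays in red left of control arrays in blue, 1 point an array, and black bars for group means. Probes of a gene have different symbols, marked spots are kept here and drawn open, and points at the bottom edge of the Erbb4 panel are at the floor. The 3 Ackr3 values of the cKO arrays lie below the 4 control values, and the Cxcl12 values of single arrays lie far apart in both groups.

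Cxcl12, the chemokine, varied more between embryos of a group than between the groups. Its brighter probe, A_51_P172502, read -0.999, 3.20 and -0.987 in the cKO-labelled arrays and 1.79, -0.83 and 1.33 in control replicates 1 to 3, while the spot of control replicate 4 had been marked and was left out. One cKO-labelled array, replicate 2, stood above every control, and the other 2 stood below every control. Within the cKO-labelled group the highest array was 18.4-fold above the lowest, against 6.13-fold within the controls. The group difference was -0.36 ± 1.34 on the log2 scale (95% interval -3.64 to 2.93, limma, n = 3 and 3 arrays, adjusted p = 0.945), so a wide span of changes in either direction could not be resolved.

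The second Cxcl12 probe, A_52_P685021, which is designed on another RefSeq transcript of the gene, ordered the arrays in a similar way. It read -3.02, -0.30 and -2.90 in the cKO-labelled arrays and -0.84, -2.55, -1.33 and -1.13 in controls. The lowest arrays on both probes were cKO replicates 1 and 3 and control replicate 2, and cKO replicate 2 was the highest on both. The difference of this probe was -0.61 ± 0.74 (limma over probes, adjusted p = 0.807), and it was -1.32 ± 0.95 within slide 1, -0.37 ± 0.96 within slide 2, -1.02 ± 0.46 in litter 2 and -1.49 ± 0.47 without cKO replicate 2. For the brighter probe the difference became -1.76 ± 0.81 without cKO replicate 2 (adjusted p = 0.556), and it turned to 0.35, 0.34 and 0.16 when cKO replicate 1, cKO replicate 3 or control replicate 1 was left out. It was -1.24 ± 0.79 within litter 2 and -1.48 ± 1.42 within slide 1, while slide 2 held too few unmarked control spots for a value.

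The summed markers of meningeal and mesenchymal cells moved with Cxcl12 from array to array, as did the sums for pericytes, endothelial cells and microglia. All 15 of the listed mesenchymal markers, among them the collagen genes Col1a1 and Col3a1 and the transcription factor gene Foxc1, passed the background filter. Their summed level relative to the 75th percentile was 2.69, 43.9 and 6.52 in the cKO-labelled arrays and 20.3, 2.33, 16.1 and 23.9 in controls. The 3 arrays with the lowest sums were the same 3 that were lowest for Cxcl12, and the array with the highest sum was the one highest for Cxcl12. Of the pericyte markers 9 of 10 were measured, and they summed to 3.24 to 9.88 in cKO-labelled arrays and 4.63 to 9.06 in controls. All 9 pericyte differences were negative, with a median of -0.42, and Cspg4, named after its value was seen, differed by -0.66 ± 0.17 (limma adjusted p = 0.283) with no overlap of the groups. Endothelial markers, 13 of 14 measured, summed to 10.7 to 24.3 in cKO-labelled arrays and 11.7 to 18.5 in controls, and microglial markers, 12 of 12 measured, to 3.02 to 5.89 in cKO-labelled arrays and 3.05 to 4.72 in controls. In the pericyte, endothelial and microglial sums too, cKO replicate 2 was highest, and cKO replicates 1 and 3 and control replicate 2 were lowest. Single markers did not all follow these sums. In cKO replicate 2 the pericyte markers Cspg4 and Higd1b and the endothelial marker Slco1c1 lay below every control. The mesenchymal marker Prrx1 was lowest in control replicate 1. The median deviation of the pericyte list was 0.28 in cKO replicate 2 and 0.29 in control replicate 1. With the array median of the mesenchymal list as a covariate, the Cxcl12 difference was -0.30 ± 0.32 for the brighter probe (adjusted p = 0.718) and -0.38 ± 0.22 for the other (adjusted p = 0.575). Over the alternatives tried these adjusted p-values ranged between 0.556 and 1 for the brighter probe and between 0.575 and 1 for the other. In bulk tissue, fewer cells of a type and less RNA per cell cannot be told apart.

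**Figure D2:**
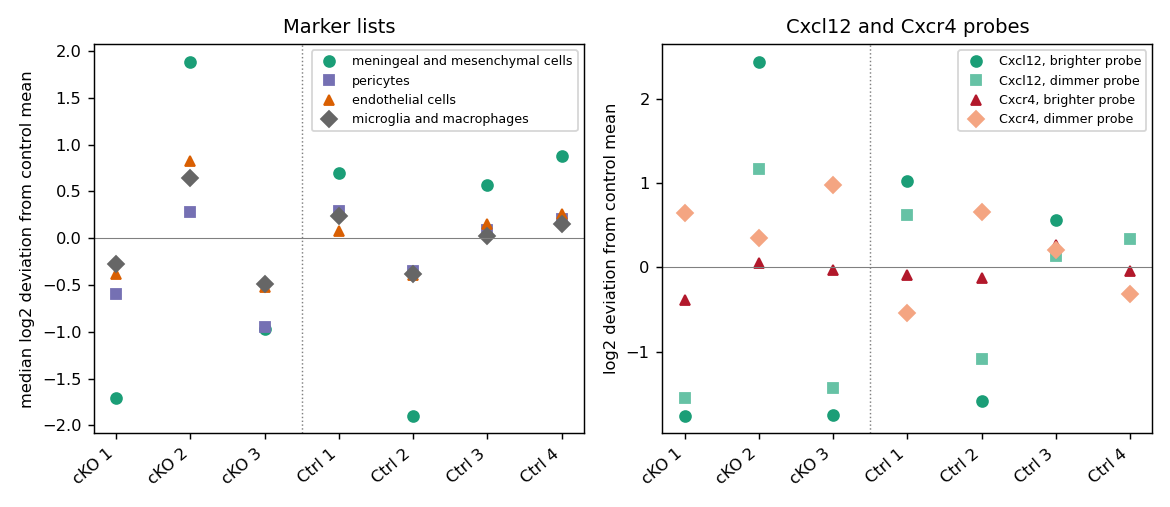
Left, median log2 deviation of 4 marker lists from the control mean on each array. Right, log2 deviation of the Cxcl12 and Cxcr4 probes from their control mean, where the brighter Cxcl12 probe has no point for control replicate 4. Arrays run along the horizontal axis with Otx2 cKO left of the dotted line and controls right of it. The array cKO 2 is the highest and cKO 1, cKO 3 and control 2 are the lowest in the mesenchymal markers and in both Cxcl12 probes. The arrays cKO 1, cKO 3 and control 2 are also the lowest in the other marker lists.

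The genes most like Cxcl12 over the 6 arrays with a value were Anpep, an aminopeptidase gene that is itself on the pericyte list, Adgre1, a macrophage surface receptor gene, and Lrrc15. Their log2 values correlated with Cxcl12 at Pearson r of 0.999, 0.999 and 0.998, chosen as the highest of 12675 genes over so few arrays. In the authors' deposited table the same 3 genes gave 0.986, 0.993 and 0.985.

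Cxcr4, the signalling receptor for CXCL12, was represented by a brighter and a dimmer probe, whose differences had opposite signs and did not pass the threshold. The brighter, A_52_P585124, read -1.98, -1.54 and -1.63 in the cKO-labelled arrays and -1.69, -1.73, -1.33 and -1.64 in controls. The groups overlapped, and all 7 arrays lay within 1.57-fold of one another. The log2 difference was -0.12 ± 0.15 (95% interval -0.47 to 0.23, limma adjusted p = 0.802). It was -0.28 ± 0.14 within slide 1, -0.10 ± 0.15 within slide 2 and -0.28 ± 0.22 in the embryos of litter 2, and 0.01 ± 0.14 without cKO replicate 1.

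The dimmer Cxcr4 probe, A_52_P565353, is assigned to the same transcript and was well above background on all 7 arrays. It read -3.31, -3.60 and -2.98 in the cKO-labelled arrays and -4.50, -3.30, -3.75 and -4.27 in controls. The cKO-labelled arrays tended to the upper end of the controls, and the groups overlapped. The difference was 0.66 ± 0.31 (limma over 28521 probes, adjusted p = 0.564), opposite in sign to the brighter probe. It was 0.59 ± 0.68 within slide 1, 0.72 ± 0.31 within slide 2 and 0.38 ± 0.24 in litter 2. Averaging both probes gave 0.27 ± 0.18 for the gene (adjusted p = 0.643).

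Within arrays the Cxcr4 probes were also set against each other, as a description chosen after their values had been seen. The dimmer minus the brighter probe gave -1.33, -2.06 and -1.35 in cKO-labelled arrays and -2.80, -1.58, -2.42 and -2.63 in controls. The mean was -1.58 ± 0.42 in cKO-labelled arrays and -2.36 ± 0.55 in controls (SD, n = 3 and 4), an average gap of 0.78. An exact permutation of 3 against 4 arrays gave a two-sided p of 0.114, where 0.0571 is the smallest possible. Whether the gap between the probes differs between the groups is not settled by these arrays. The arrays with the highest dimmer probe, cKO replicates 1 and 3 and control replicate 2, are the 3 with the lowest mesenchymal markers. The other end did not follow: cKO replicate 2, with the highest mesenchymal sum, read -3.60 on the dimmer probe, above control replicates 1, 3 and 4. With the mesenchymal covariate the dimmer probe differed by 0.59 ± 0.23 (limma adjusted p = 0.469, against 0.414 to 1 over the alternatives).

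Genes most like the brighter Cxcr4 probe over 7 arrays were Gpatch2l, Ankrd9 and Spryd3, at r of 0.994, 0.977 and 0.973. In the authors' deposited table these were 0.876, 0.973 and 0.947, and Ankrd9 ranked first there.

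Ackr3, the atypical receptor that scavenges CXCL12, varied little within each group and separated the groups by label, on spots that the scanner software had marked. Its single probe, A_52_P675395, was marked non-uniform on 6 of the 7 arrays and unmarked only on control replicate 2. Such marking on at least 6 arrays befell 226 probes, 0.549% of all. With marked spots kept, it read 1.99, 2.14 and 2.06 in the cKO-labelled arrays and 2.46, 2.31, 2.50 and 2.30 in controls. All 3 cKO-labelled arrays lay below all 4 controls, a separation in this direction seen in 6.96% of the 13744 genes of that fit. The log2 difference was -0.33 ± 0.09, a 1.25-fold lower signal (95% interval -0.53 to -0.12, limma adjusted p = 0.285, with an unadjusted p under 0.05), where 0.196% of genes passed the threshold and 11.7% did not overlap in either direction.

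The Ackr3 difference kept its sign in all 16 other settings tried, among them each array left out, with values between -0.41 and -0.28 and adjusted p-values between 0.221 and 1. It was -0.39 ± 0.16 within slide 1, -0.29 ± 0.12 within slide 2 and, in the embryos of litter 2, -0.38 ± 0.12. With the mesenchymal covariate it was -0.31 ± 0.08. Genes most like Ackr3 over 7 arrays were Vps52, a subunit of a vesicle-tethering complex, Ppif, which encodes the mitochondrial cyclophilin, and Zbed3, at r of 0.969, 0.968 and 0.965.

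Nrg1, the neuregulin-1 ligand, was measured by 3 probes, all well above background on all 7 arrays. The brightest, A_52_P369769, read -1.12, -1.26 and -0.91 in the cKO-labelled arrays and -1.27, -0.99, -1.34 and -1.39 in controls. The groups overlapped, with control replicate 2 apart from the other controls at the upper end. The log2 difference was 0.15 ± 0.13 (95% interval -0.16 to 0.46, limma adjusted p = 0.727), and it was 0.004 ± 0.205 within slide 1, 0.28 ± 0.16 within slide 2 and 0.14 ± 0.18 within litter 2.

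The second Nrg1 probe, A_52_P369761, placed the arrays in much the same pattern, at -1.43, -1.44 and -1.11 in the cKO-labelled arrays and -1.55, -1.25, -1.59 and -1.63 in controls. Its difference was 0.18 ± 0.14 (limma over probes, adjusted p = 0.698). The third probe, A_52_P52635, read -4.50, -5.19 and -4.74 in the cKO-labelled arrays and -4.85, -4.82, -4.74 and -4.99 in controls. Here a cKO-labelled array was both the highest and the lowest, and the difference was 0.04 ± 0.17 (adjusted p = 0.953). All 3 probes are assigned to 1 transcript, although Nrg1 is known for many isoforms, so these values do not separate membrane-bound from secreted forms. Genes most like Nrg1 over 7 arrays were Zbtb21, Tmem205 and Cnksr2, at r of 0.971, 0.968 and 0.967.

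Nrg3, a neuregulin that binds ERBB4 and acts as a guidance cue for interneurons in the cortical wall, lay close to the lower limit of detection. Its probe, A_51_P177071, read -6.23 and -6.86 in cKO replicates 2 and 3 and -5.21, -6.21, -6.02 and -6.12 in controls. Both usable cKO-labelled arrays were below all 4 controls, although cKO replicate 2 and control replicate 2 nearly met. The difference was -0.66 ± 0.33 (95% interval -1.48 to 0.17, limma, n = 2 and 4, adjusted p = 0.539). It was -0.43 ± 0.21 without control replicate 1.

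The spot of cKO replicate 1 decided the sign of the Nrg3 difference. It had been marked as non-uniform and read -2.73, far above the other arrays. With it kept, the difference was 0.64 ± 0.98 (limma adjusted p = 0.846), and in the authors' deposited table, which shows no such marking, the same fit gave 0.37 ± 0.54 (adjusted p = 0.815). The probe gave -0.48 ± 0.25 within slide 2, while slide 1 held no unmarked cKO spot. With litter as a block it was -0.74 ± 0.17 (adjusted p = 0.765), which rests on cKO replicate 3 against control replicates 2 and 3. Over the 6 arrays with a value, the genes most like Nrg3 were Arhgef10l, Tnc, the matrix gene of tenascin-C, and Mef2d, a transcription factor gene, at r of 0.993, 0.993 and 0.992. In the authors' deposited table, over all 7 arrays, these r were 0.211, 0.402 and 0.246.

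Erbb4, the neuregulin receptor, was at or near the detection limit in this tissue on these arrays. Of its 3 probes, A_52_P608535 was well above background on 1 of 3 cKO-labelled arrays and 3 of 4 controls. It read -6.40 in cKO replicate 3, with the floor of -7.45 in cKO replicates 1 and 2, against -6.60, -6.47 and -6.28 in control replicates 1, 2 and 4, with the floor in control replicate 3. The difference was -0.40 ± 0.37 (95% interval -1.27 to 0.47, limma adjusted p = 0.734), and values at the floor have no order among themselves. Within slide 1 the difference was -0.915, with the single cKO array at the floor, so its size depends on where the floor lies. The difference was -0.06 ± 0.58 within slide 2 and 0.03 ± 0.53 within litter 2, each with arrays at the floor. The probe passed the background filter through 3 controls and 1 cKO-labelled array.

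The other Erbb4 probes did not pass the background filter. A_51_P396034 was well above background on 1 array, cKO replicate 3, at -5.72, and on 0 of 4 controls. A_52_P256090 was well above background on 0 of 7 arrays. A low signal of a probe sets only a bound on the level of the transcript. With 3 arrays tied at the floor, genes among the most like the first probe were Foxo4 and Mtus2, at r of 0.902 and 0.896.

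**Figure D3:**
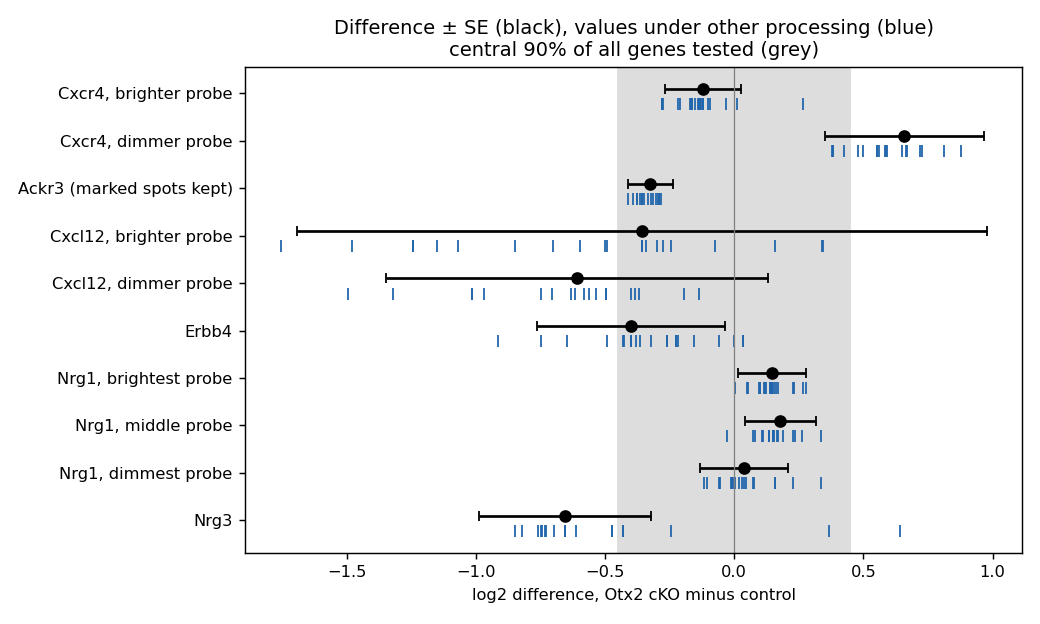
Log2 difference, Otx2 cKO minus control (horizontal axis), for each tested probe of the 6 genes. Black points and bars give the estimate ± SE, blue ticks the values under other processing, and the grey band the central 90% of all genes tested. The blue ticks of Ackr3 and of the dimmer Cxcl12 probe stay below 0 and those of the dimmer Cxcr4 probe and the brightest Nrg1 probe above 0. The ticks in the rows of the brighter Cxcl12 and Cxcr4 probes, the other Nrg1 probes, Nrg3 and Erbb4 reach both sides. Rows of a gene's brightest probe include the mean over its probes, which for Cxcr4 is the tick at 0.27. The brighter Cxcr4 probe alone reached 0.012, without cKO replicate 1.

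Related genes were counted from lists of the same pathways and of migrating interneurons. Among 17 tested of 23 genes of ErbB receptors, ligands and shedding proteases, 0 rose and 0 fell (limma adjusted p), 2 had an unadjusted p under 0.05, and 9 differences were positive and 8 negative with a median of 0.04. Over all genes tested, 1472 of 13350 (11.0%) had an unadjusted p under 0.05, and 7111 differences were positive and 6239 negative with a median of 0.01. The median of the ErbB list was -0.06 with median centring, which moved the median of all genes to -0.08. Lrig1, an inhibitor that promotes the degradation of ErbB receptors, read 2.49, 2.72 and 2.60 in the cKO-labelled arrays and 1.83, 1.86, 1.96 and 2.01 in controls. The groups did not overlap, at a difference of 0.69 ± 0.09 whose adjusted p of 0.0558 missed the threshold and passed it in 7 of 25 other settings, over which it ranged from 0.0125 to 1. Erbb2, the co-receptor with which ERBB4 can pair, differed by 0.29 ± 0.11 (adjusted p = 0.433).

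Among 17 tested of 26 other chemokine and chemokine receptor genes, 0 rose and 0 fell (limma adjusted p), 3 had an unadjusted p under 0.05 (11.0% of all genes had), and the median difference was -0.08. That median was 0.003 without control replicate 3, 0 without the background filter, -0.17 within slide 2 and -0.18 with median centring. Ackr1, an atypical receptor that binds many chemokines, differed by -0.43 ± 0.11 (adjusted p = 0.283). Cxcl14, a chemokine reported to act with CXCL12, differed by -0.61 ± 0.19 (adjusted p = 0.332), and all 3 cKO-labelled arrays lay below all 4 controls for both genes.

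For signalling below the chemokine receptors, 21 of 25 G protein, arrestin, RGS and adaptor genes were tested, of which 0 rose and 0 fell (limma adjusted p) and 5 had an unadjusted p under 0.05 (11.0% of all genes had). Differences were negative for 16 and positive for 5, with a median of -0.13. The median was 0.017 when the probes of a gene were averaged, -0.06 without control replicate 3 and within slide 1, and -0.21 with median centring. Elmo1, an adaptor of Rac activation, differed by -0.59 ± 0.16 (adjusted p = 0.283). Gnao1, which encodes a G protein alpha subunit of the inhibitory class, differed by -0.48 ± 0.14 (adjusted p = 0.299), and by 0.02 when all its probes were averaged.

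Other cues and receptors of interneuron migration gave 30 tested of 32, with 0 that rose and 0 that fell (limma adjusted p), 6 with an unadjusted p under 0.05 (11.0% of all genes had) and a median of -0.10. The median was -0.18 without cKO replicate 2, -0.21 within litter 2 and -0.20 with median centring. Slit2, a repellent ligand for ROBO receptors, read 2.22, 2.83 and 2.03 in the cKO-labelled arrays and 1.37, 1.22, 1.64 and 1.60 in controls. The groups were apart, and the difference was 0.90 ± 0.21 (adjusted p = 0.244). Bdnf, a neurotrophin that promotes interneuron movement, differed by -0.63 ± 0.17 (adjusted p = 0.292). Of the cytoskeletal genes, 18 of 20 were tested, 0 rose and 0 fell (limma adjusted p), 6 had an unadjusted p under 0.05 (11.0% of all genes had), and the median was -0.09. Tubb3, the neuronal beta-tubulin gene, differed by -0.36 ± 0.09 (limma adjusted p = 0.278) and Cdk5r1, an activator of the kinase CDK5, by -0.30 ± 0.09 (adjusted p = 0.319). Beside these neuronal genes, radial glia markers, 10 of 10 measured, summed to 238, 232 and 284 in the cKO-labelled arrays. In controls they summed to 200, 236, 237 and 239. Of their differences 8 were positive and 2 negative, with a median of 0.12, and their part in the values of the neuronal lists was not tested.

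Transcription factor genes of migrating subpallial interneurons were the one list with genes past the threshold. The lists were chosen with earlier results of these data known. Of 22 listed genes 21 were tested, 2 fell and 0 rose (limma adjusted p), 8 had an unadjusted p under 0.05 (11.0% of all genes had) and the median was -0.26. The 8 include Elmo1, which is no transcription factor and was already counted among the signalling genes. The median was -0.15 without cKO replicate 2. Lhx8, a LIM homeodomain gene of the medial ganglionic eminence, read 1.53, 0.99 and 1.56 in the cKO-labelled arrays and 3.20, 3.61, 3.44 and 3.33 in controls, a difference of -2.04 ± 0.17 (adjusted p = 0.0152).

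Lhx6, a LIM homeodomain gene needed for interneuron migration and specification, read 2.19, 1.58 and 1.89 in the cKO-labelled arrays and 3.09, 2.96, 3.17 and 3.05 in controls, a difference of -1.18 ± 0.15 (limma adjusted p = 0.0492). Both genes lay lower in every cKO-labelled array than in every control. Their adjusted p stayed under the threshold in 16 of 25 other settings for Lhx8, over which it ranged from 0.00166 to 1, and in 7 of 25 for Lhx6, over which it ranged from 0.00787 to 1. Among these, leaving out a single array gave 0.0349 to 0.106 for Lhx8 and 0.0362 to 0.212 for Lhx6.

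**Figure D4:**
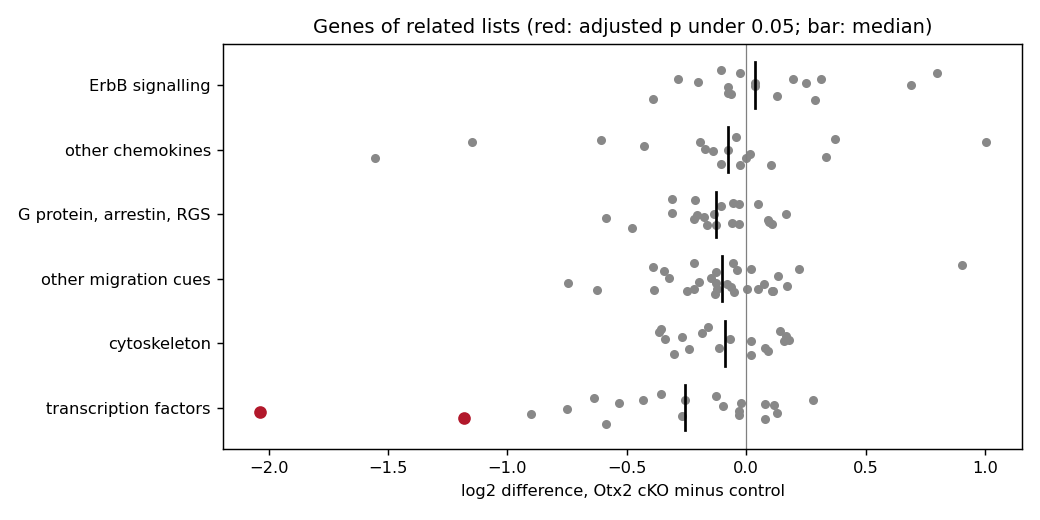
Log2 difference, Otx2 cKO minus control (horizontal axis), for each tested gene of 6 related lists, 1 point a gene with a black bar at the median of the list. Red points mark the 2 genes with an adjusted p under 0.05, Lhx8 and Lhx6, both on the lower side in the transcription factor list.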

How the data were processed

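Each embryo's total RNA was amplified with Cy3 label for 1-colour arrays, per the labels' protocols. Per the file headers, the deposited intensity values had been corrected for background and for a spatial trend by Agilent Feature Extraction 10.7.3.1 with nothing normalized between arrays, whereas the submitters' processing notes name version 10.5. The authors also deposited log2 values of the same arrays. Their order within each array followed the median spot signal (rank correlation at least 0.99996), the array medians were 7.62, 7.62 and 7.64 for the Otx2 cKO arrays and 7.61, 7.63, 7.61 and 7.62 for the controls, and the columns shared a maximum of 18.8. How they were normalized is not stated in the labels or headers, and they served as an alternative.

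Control spots and spots marked as outliers by the scanner software (1.24% to 2.51% per array) were left out. Spot signals were divided by the array's 75th percentile over probes, floored at a log2 value of -7.45 and taken to log2. The log2 values of the spots of a probe were then averaged. No spot was saturated, and 68.4% to 72.2% of spots were well above background. The number of arrays limits the precision. Names came from matching RefSeq accessions to a gene table of GRCm38.p6, not used for positions: 24844 probes received 1 symbol, 0 received several and 16330 received none. The brightest probe stood for each gene. It entered the test if 3 or more of the 7 arrays were well above background and each group had at least 2 unmarked values. Of 17178 named genes 13744 passed the filter and 13350 were tested for the group difference with lmFit and eBayes of limma 3.58.1 (R 4.3.3), with Benjamini-Hochberg adjustment and a threshold of 0.05. A second fit covered 28521 probes. On data simulated for this comparison with 12675 genes, the fit recovered 67% of 100 genes changed 2-fold and 87% of 100 genes changed 4-fold, with 12 false calls. These shares may not hold for members with missing values, values at the floor or a large SE. The SE was 1.34 and 0.74 for the brighter and dimmer Cxcl12 probes, against a median SE of 0.13. The number of genes truly changed in the data, on which the adjustment depends, is not known. Each array came from a separate embryo, and the labels give no other replication.

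The genes named were the members with all their probes, Otx2, the genes of each list past the threshold or else the 2 with the smallest p, and the 3 genes most correlated with each member over the arrays. For Erbb4, 1 of these 3 is not reported here. Members, lists and alternatives were chosen with earlier results of these data known. The alternatives covered scaling, background correction (normexp with offset 50 on the median signal, since the files hold no mean signal), filters, marked spots, slide, litter and replicate blocks, variance models, a mesenchymal covariate and each array left out. Those for Ackr3 with marked spots kept were added after seeing the data.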

Additional observations from a re-analysis of the deposited data

How the results depend on the processing

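The 28 genes past the threshold became 50 with normexp and quantile normalization, 43 in the authors' deposited table, 15 with no background filter, 16 with slide as a block, 53 with a trended robust variance, 67 with array weights and 13 with the mesenchymal covariate. Limma called 0 genes within slide 1 (by unadjusted p under 0.05, 215 higher and 198 lower), 0 within slide 2 (547 and 648), 0 with litter as a block (220 and 645), 0 within litter 2 (214 and 632) and 0 with the replicate number as a block (600 and 899). Leaving out 1 array gave 0 to 25 genes, with 0 without cKO replicate 3 (401 and 465), control replicate 2 (531 and 764), control replicate 3 (448 and 626) or control replicate 4 (466 and 999), 3 without cKO replicate 2 and 11 without control replicate 1. The 20 probes past the threshold became 43 with normexp, 41 in the authors' deposited table and 9 with the mesenchymal covariate. They became 0 with slide (1370 higher and 1557 lower unadjusted), litter (486 and 874) or replicate number (1782 and 1280) as a block and 0 within slide 1 (463 and 302), slide 2 (1891 and 1106) or litter 2 (477 and 862), and 0 to 9 with 1 array left out. The same replicate numbers did not pair the arrays: their deviations correlated at 0.15, -0.28 and -0.03, and cKO replicate 1 alone correlated best with its own number.

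No member passed the threshold under any alternative. Cxcr4 turned to 0.27 as the mean over its probes and spanned -0.21 to 0.012 with 1 array left out, Cxcl12 spanned -1.76 to 0.35 with 1 array left out, and Nrg3 turned to 0.37 in the authors' deposited table and 0.64 with marked spots kept. Erbb4 was 0.033 with litter as a block and within litter 2, and 0 with array weights. Gnao1 was 0.017 as the mean over its probes. The second Nrg1 probe was -0.027 within slide 1. The third was -0.06 with median centring, -0.054 with quantile normalization, -0.012 with normexp, -0.01 with the replicate block, -0.11 within slide 2 and 0 with the mesenchymal covariate, and spanned -0.12 to 0.23 with 1 array left out. The causes of these turns were not tested, except that keeping the marked spot of cKO replicate 1 sets the sign for Nrg3. Median centring moved the median of all genes by less than 0.1, to -0.08. No fit was made for Cxcl12 within slide 2 or for Nrg3 within slide 1 or litter 2 because of marked spots. Signals near background limit Erbb4 and Nrg3.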
